A study of Lathyrus oleraceus with 4 samples.

Results

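The unigenes comp27361_c0_seq1, comp21944_c0_seq2 and comp30742_c0_seq1 are the sequences that the study of developing pea seeds named as a MYB, a GRAS and a bHLH transcription factor. They were taken by these identifiers and are 3 of the 77269 unigenes in the table, where a unigene is 1 sequence assembled from the RNA-Seq reads without a genome. The families come from the study's names alone, because the table holds no annotation, 0 of its identifiers are in the gene list of the pea reference annotation, and the unigene sequences were not analysed here. The study shows these unigenes among ones it calls differentially expressed, so the changes below are not independent evidence that they respond to stage. The study also measured a set of unigenes by quantitative RT-PCR (qRT-PCR) in independently collected seeds with biological replicates. Those values were not analysed here.

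Transcription factors are proteins that bind DNA near genes and set how often these are transcribed, and all 3 families are large in plants. MYB proteins bind DNA through repeated helix-turn-helix units, and in plants they control, among other things, pigment and cell wall pathways, cell shape and the cell cycle. GRAS proteins are a plant family that includes the DELLA proteins, which hold back responses to the hormone gibberellin, and the SCARECROW proteins, which pattern the tissue layers of the root in Arabidopsis. Proteins of the bHLH family act as pairs, joined through the helix-loop-helix part, and in pea the flower colour gene A that Mendel studied encodes a member. In seeds of Arabidopsis, MYB and bHLH proteins work in a shared complex to switch on the pigment pathway of the seed coat. Which branch of its family each of the 3 unigenes belongs to is not given in the sources used here.

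Seeds of 2 cultivars were sampled at 25 and 10 days after pollination (DAP). Zhongwan 6 is a grain pea and Zhewan 1 a vegetable pea, eaten as immature seeds; the later stage is one of seed filling and the earlier one of cell division. Each of the 4 groups, namely Zhongwan 6 at 25 DAP, Zhongwan 6 at 10 DAP, Zhewan 1 at 25 DAP and Zhewan 1 at 10 DAP, has 1 library. The plants were grown in the field, and seeds of many plants were pooled into a sample; how the biological replicates that the methods describe entered the libraries is not stated, so no value below has a replicate error.

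The libraries held between 50086351 and 70912839 reads counted on unigenes. A unigene with no read could have up to 3 reads at this depth, or an RPKM (reads on a unigene scaled to its length in kilobases and to the library's counted reads in units of 1e6) of 0.0423 to 0.0599 for 1 kb. Intervals given with levels and ratios are at 95% and cover counting error only. The counted totals exceed the number of clean reads, so that some reads were counted on more than one sequence. The reads were paired-end, and whether both reads of a pair were counted is not stated. The intervals take each counted read as independent and can therefore be too narrow even for counting error. An oleosin (the coat protein of oil bodies), an unknown seed protein and a cupin were taken as seed markers. The label of the cupin names a superfamily and not a seed product. All had reads in every library. Their summed RPKM was 355 at 25 DAP and 141 at 10 DAP in Zhongwan 6 and 189 and 193 in Zhewan 1. These unigenes moved with stage and cultivar, and not together. The seed protein comp12618_c0_seq1 was 3.30-fold higher at 25 DAP in Zhongwan 6 and at a ratio of 0.984 in Zhewan 1, and the oleosin comp11102_c0_seq1 was at 0.966 in Zhongwan 6 and 2.33-fold lower in Zhewan 1. The cupin comp13522_c0_seq1 was 2.05-fold lower in Zhongwan 6 and 1.58-fold higher in Zhewan 1. At 25 DAP the oleosin was 3.61-fold higher in Zhongwan 6 than in Zhewan 1. The part of such shifts in the results below was not tested. RNA from whole seeds cannot tell a changed share of a tissue from a changed level per cell. The libraries as a whole are shifted against each other: over the 22135 unigenes whose RPKM is 1 or more in every library, log2 ratios of 25 to 10 DAP had a median of -0.14 in Zhongwan 6 and of 0.56 in Zhewan 1. Those of Zhongwan 6 to Zhewan 1 had a median of -0.34 at 25 DAP and of 0.40 at 10 DAP. Scaling the libraries by their median ratio instead of by their totals moves every log2 ratio in these comparisons by 0.23, -0.55, 0.39 and -0.40, in the same order.

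The 3 unigenes are long ones for this assembly. The MYB and the bHLH unigene are both 1490 bp, a length that 19 unigenes have, and 79.9% of all unigenes are shorter. The GRAS unigene is 2422 bp, and 92.5% of unigenes are shorter. The median over the table is 529 bp. Each of the 3 is the only row in the table of its Trinity component (the group of related sequences that the assembler builds together). The counts were therefore not split with another row of the same component. The identifier of the GRAS unigene ends in seq2. Whether its component had another sequence that the table lacks, and that took reads, is not known. The reads behind the values number between 412 and 5363, so the counting interval of a level is narrow beside the differences below.

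At 25 DAP the bHLH unigene was far above the other two in both cultivars, and at 10 DAP it was the lowest of the 3. The MYB and GRAS unigenes did the opposite: both were several times lower at 25 DAP than at 10 DAP. All 3 changed past the thresholds given below in both cultivars. Of all unigenes tested in both, 5.88% were called higher at 25 DAP in both and 5.86% lower in both. The 3 were shown by the study as differentially expressed, so nothing is read from their calls. The GRAS unigene was, in addition, higher in Zhongwan 6 than in Zhewan 1 at both stages.

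**Figure D1:**
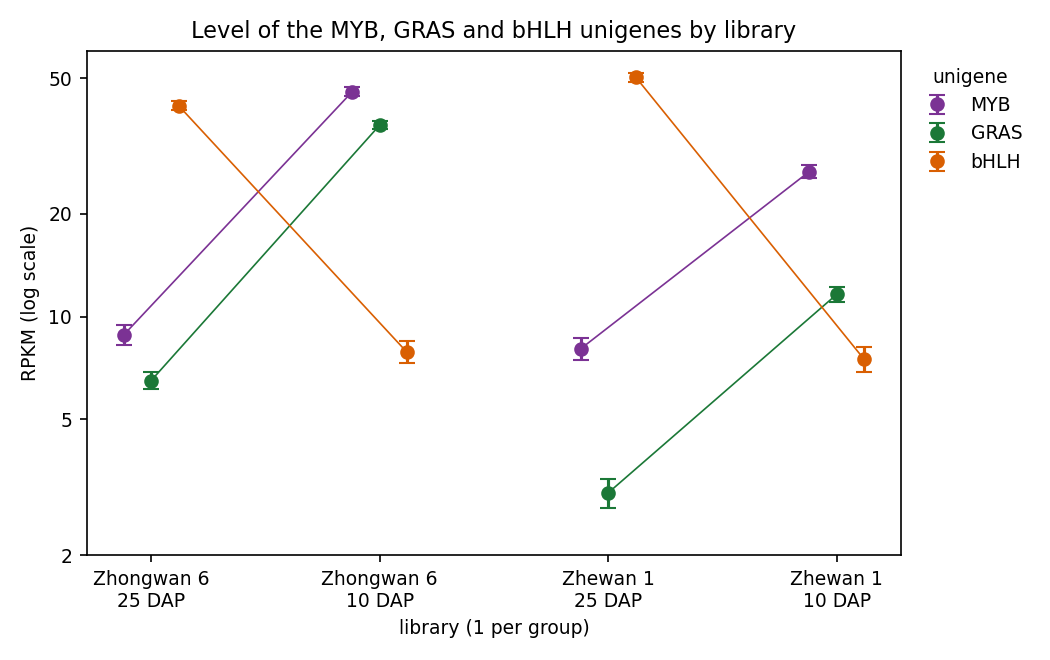
RPKM (log axis) of the MYB, GRAS and bHLH unigenes in each of the 4 libraries; points are the deposited values, bars are 95% Poisson intervals of the reads (counting error only), and lines join the 2 stages of a cultivar. The bHLH unigene stands at 41.5 and 50.4 at 25 DAP and under 8 at 10 DAP, while the lines of the MYB and GRAS unigenes slope the other way.

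For the MYB unigene comp27361_c0_seq1, Zhongwan 6 gave 934 reads at 25 DAP and 4134 at 10 DAP, or RPKM values of 8.84 (8.28 to 9.43) and 45.6 (44.2 to 47.0). Zhewan 1 gave 670 reads at 25 DAP and 1986 at 10 DAP, or RPKM values of 8.06 (7.46 to 8.69) and 26.6 (25.5 to 27.8). Both libraries of 25 DAP lie low and close to each other, and both of 10 DAP lie high and apart. Ranked by RPKM within its library, the MYB unigene was above 89.8% of the unigenes with a read at 25 DAP and above 98.3% at 10 DAP in Zhongwan 6, and above 86.7% and 97.1% at these stages in Zhewan 1.

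For the GRAS unigene comp21944_c0_seq2, Zhongwan 6 gave 1116 reads at 25 DAP and 5363 at 10 DAP, or RPKM values of 6.50 (6.12 to 6.89) and 36.4 (35.4 to 37.4). Zhewan 1 gave 412 reads at 25 DAP and 1410 at 10 DAP, or RPKM values of 3.05 (2.76 to 3.36) and 11.6 (11.02 to 12.2). No 2 of these intervals overlap. Zhongwan 6 at 10 DAP stands highest and Zhewan 1 at 25 DAP lowest, and within each stage Zhongwan 6 is above Zhewan 1. In Zhewan 1 at 25 DAP the GRAS unigene was above 71.2% of the unigenes with a read, the lowest place that any of the 3 took in a library.

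For the bHLH unigene comp30742_c0_seq1, Zhongwan 6 gave 4388 reads at 25 DAP and 713 at 10 DAP, or RPKM values of 41.5 (40.3 to 42.8) and 7.86 (7.30 to 8.46). Zhewan 1 gave 4188 reads at 25 DAP and 560 at 10 DAP, or RPKM values of 50.4 (48.8 to 51.9) and 7.50 (6.90 to 8.15). The 2 libraries of 10 DAP overlap in their intervals, and those of 25 DAP are apart by less than the stages are. At 25 DAP the bHLH unigene was above 97.9% of the unigenes with a read in either cultivar, and at 10 DAP above 87.1% in Zhongwan 6 and 88.9% in Zhewan 1.

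The comparison of the stages asks which unigenes change between seed filling and early development. A call needed a false discovery rate (FDR) of 0.001 or less and RPKM values that differ 2-fold or more. The FDR comes from Fisher's exact test, two-sided, on read numbers, which sets library against library and not stage against stage. In Zhongwan 6, 9.08% of the 74915 unigenes tested were called higher at 25 DAP and 16.0% lower. Under median-ratio scaling the split was 11.3% and 13.1%. In Zhewan 1, 20.7% of 74253 were called higher at 25 DAP and 9.42% lower, against 12.7% and 13.7% with median-ratio scaling. A call in a given direction in 1 cultivar is thus a common event in this table. The study, by its own statistical formula, reports far fewer differentially expressed unigenes at these thresholds, so the shares here are not the study's.

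In Zhongwan 6 the MYB unigene fell 5.16-fold at 25 DAP relative to 10 DAP (4.80 to 5.54), a log2 ratio of -2.37. The GRAS unigene fell 5.60-fold (5.25 to 5.98), a log2 ratio of -2.49. The bHLH unigene rose 5.28-fold (4.88 to 5.72), a log2 ratio of 2.40. The 3 changes are of about the same size, with 1 of them in the other direction.

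In Zhewan 1 the MYB unigene fell 3.30-fold at 25 DAP (3.02 to 3.61; log2 ratio -1.72, FDR 1.47e-181 by Fisher's exact test). The GRAS unigene fell 3.81-fold (3.42 to 4.27; log2 ratio -1.93, FDR 6.37e-151 by the same test). The bHLH unigene rose 6.71-fold (6.14 to 7.34; log2 ratio 2.75). Here the rise of the bHLH unigene is the largest of the 3 changes on this scaling. With median-ratio scaling the log2 ratios became -2.28, -2.49 and 2.19 for the MYB, GRAS and bHLH unigenes in Zhewan 1, and -2.13, -2.25 and 2.63 in Zhongwan 6, so that all kept their direction and passed the thresholds while their order within Zhewan 1 changed. When libraries were assumed to vary by a coefficient of 0.4, edgeR's likelihood ratio test kept none of the 6 stage calls (FDR 0.0145 to 0.128), and at 0.2 it kept all 6. Over all unigenes, in either direction, it called 5.55% in Zhongwan 6 and 5.93% in Zhewan 1 at 0.4. At 0.2 it called 16.1% and 19.5%.

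**Figure D2:**
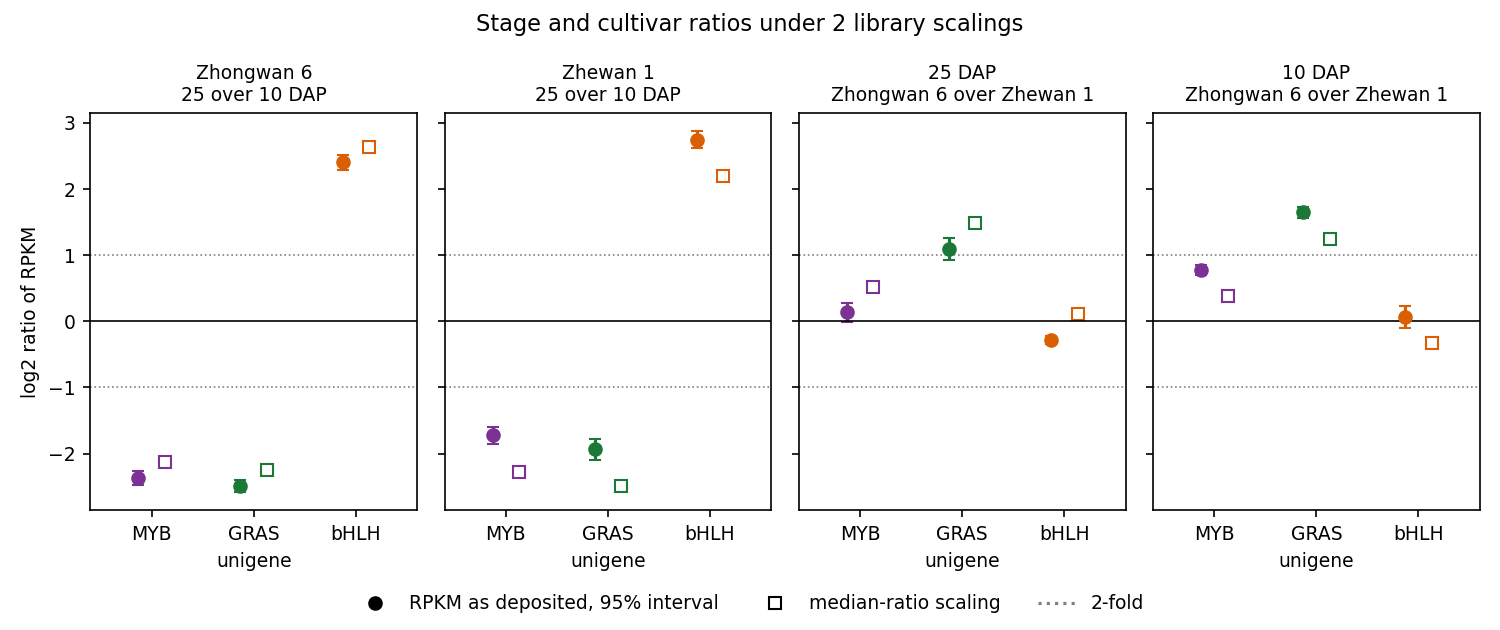
Log2 ratio of RPKM for each unigene in 4 comparisons: 25 over 10 DAP in Zhongwan 6 and in Zhewan 1, and Zhongwan 6 over Zhewan 1 at 25 DAP and at 10 DAP. Filled circles are ratios as deposited with 95% counting intervals, open squares the same after median-ratio scaling, and dotted lines mark 2-fold; the stage ratios lie beyond 2-fold under both, and of the cultivar ratios only those of GRAS do.

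Being called in the same direction in both cultivars is less common. Of the 71899 unigenes tested in both, 5.88% were called higher at 25 DAP in both, as the bHLH unigene was, and 5.86% lower in both, as the MYB and GRAS unigenes were. Since the 3 were shown as differentially expressed on these libraries, nothing is read from this share. Among the 22135 unigenes with an RPKM of 1 or more throughout, 251 had log2 ratios as low as those of the MYB unigene or lower in both cultivars, itself included. For the GRAS unigene this number was 212, and 202 were as high as the bHLH unigene or higher in both. These numbers are 0.913% to 1.13% of the unigenes compared, on the deposited scaling alone. Because the 3 were shown as differentially expressed, a place far out is favoured, and nothing is read from it either.

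**Figure D3:**
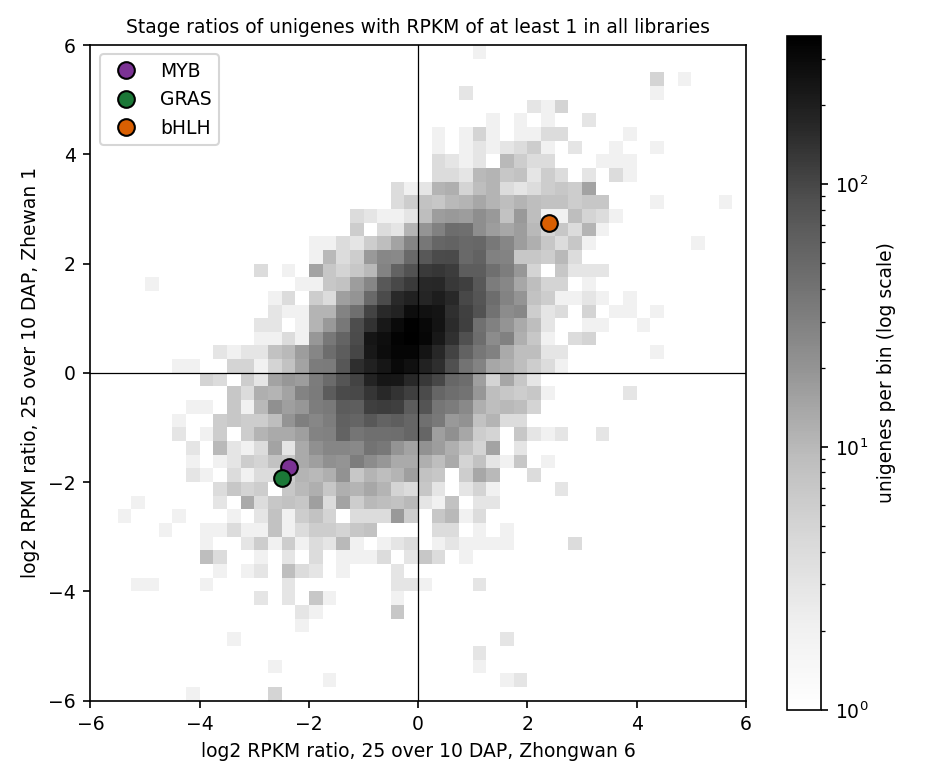
Log2 RPKM ratio of 25 over 10 DAP in Zhongwan 6 (horizontal) and in Zhewan 1 (vertical) for the 22135 unigenes that reach an RPKM of 1 in every library, as grey squares shaded by the number of unigenes on a log scale; 79 unigenes lie outside the axes. The coloured points are the MYB and GRAS unigenes, side by side at the lower left, and the bHLH unigene at the upper right.

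An additive model over all 4 libraries, with terms for cultivar and stage, was the only fit with a residual, which here is the difference between the cultivars in the change with stage and not a replicate error. In edgeR's quasi-likelihood test the log2 ratios of 25 to 10 DAP were -2.23 for the MYB, -2.39 for the GRAS and 2.39 for the bHLH unigene, with adjusted p-values of 0.104, 0.0963 and 0.102. Of the 42328 unigenes kept by its filter on low counts, 0 (0%) reached an adjusted p under 0.05, while 8980 (21.2%) and all 3 unigenes had an unadjusted p under 0.05. With limma on log2(RPKM + 1), 14.8% of 31470 unigenes passed and the 3 were among them, with adjusted p-values of 0.0221, 0.0142 and 0.00225 for MYB, GRAS and bHLH. Without the filter, edgeR called 8.39% of all 77269 unigenes, again with the 3 among them (adjusted p 0.0238, 0.0159 and 0.0156).

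Whether the change with stage was the same in both cultivars depended on the scaling. As deposited, the log2 ratio of 25 to 10 DAP in Zhongwan 6 minus that in Zhewan 1 was -0.64 for the MYB unigene (-0.81 to -0.48), -0.55 for the GRAS unigene (-0.74 to -0.37) and -0.35 for the bHLH unigene (-0.52 to -0.17). After median-ratio scaling the differences were 0.15 (-0.02 to 0.31), 0.23 (0.05 to 0.42) and 0.44 (0.27 to 0.61), so that all 3 turned their sign. No direction is therefore given for them.

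The comparison of the cultivars asks what differs between grain and vegetable pea at the same stage. At 25 DAP, 4.93% of 72654 unigenes were called higher in Zhongwan 6 and 12.3% lower, against 7.42% and 6.82% with median-ratio scaling. At 10 DAP, 10.4% of 71326 were called higher in Zhongwan 6 and 3.07% lower, against 5.10% and 5.28% with median-ratio scaling. Of the 3 unigenes, the GRAS unigene alone was called, at both stages and under both scalings.

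The GRAS unigene was 2.13-fold higher in Zhongwan 6 than in Zhewan 1 at 25 DAP (1.90 to 2.39; FDR 4.68e-42 by Fisher's exact test), with an RPKM of 6.50 in Zhongwan 6 against 3.05 in Zhewan 1. At 10 DAP it was 3.13-fold higher (2.95 to 3.32), with 36.4 in Zhongwan 6 against 11.6 in Zhewan 1. Median-ratio scaling moved the log2 ratios to 1.48 and 1.25, against 1.09 and 1.65 as deposited, so which stage has the larger difference is not settled by these data. Among the 22135 unigenes its log2 ratio was above 95.5% at 25 DAP and above 97.2% at 10 DAP. The interval at 25 DAP reaches under 2-fold, and a pseudocount of 1 lowers that log2 ratio to 0.89 and so ends the call. Both calls were lost in edgeR's likelihood ratio test when libraries were assumed to vary by a coefficient of 0.2 (FDR 0.0471 at 25 DAP and 0.00192 at 10 DAP), while the stage calls of all 3 unigenes stood. Between the cultivars, that test still called 7.62% of all unigenes at 25 DAP and 4.21% at 10 DAP.

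At 25 DAP the MYB unigene stood at an RPKM of 8.84 in Zhongwan 6 against 8.06 in Zhewan 1, a 1.10-fold difference (0.993 to 1.21; FDR 0.131 by Fisher's exact test). At 10 DAP it stood at 45.6 in Zhongwan 6 against 26.6 in Zhewan 1, a 1.71-fold difference (1.62 to 1.81) that lies beyond counting error and under the 2-fold threshold. After median-ratio scaling the log2 ratios were 0.52 at 25 DAP and 0.38 at 10 DAP, against 0.13 and 0.78 as deposited, higher in Zhongwan 6 each time.

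The bHLH unigene was not called between the cultivars at either stage. At 25 DAP it stood at an RPKM of 41.5 in Zhongwan 6 against 50.4 in Zhewan 1, a quotient of 0.825 (0.790 to 0.861) that lies beyond counting error and within 2-fold. At 10 DAP it stood at 7.86 in Zhongwan 6 against 7.50 in Zhewan 1, a quotient of 1.05 (0.937 to 1.17; FDR 0.584 by Fisher's exact test). Median-ratio scaling turned the log2 ratios to 0.11 at 25 DAP and -0.33 at 10 DAP, so no direction is given for the bHLH unigene between the cultivars.

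Ratios between the 3 unigenes within a library do not depend on how libraries are scaled. Per length, the bHLH unigene had 4.70 times the reads of the MYB unigene in Zhongwan 6 at 25 DAP (4.38 to 5.05) and 0.172 times at 10 DAP (0.159 to 0.187). Zhewan 1 had 6.25 times at 25 DAP (5.76 to 6.79) and 0.282 times at 10 DAP (0.256 to 0.310). The balance between them therefore moved 27.2-fold with stage in Zhongwan 6 (24.5 to 30.3) and 22.2-fold in Zhewan 1 (19.6 to 25.1).

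Set against the GRAS unigene, the bHLH unigene had 6.39 times the reads per length in Zhongwan 6 at 25 DAP (5.98 to 6.83) and 0.216 times at 10 DAP (0.1996 to 0.234). Zhewan 1 had 16.5 times at 25 DAP (14.9 to 18.3) and 0.646 times at 10 DAP (0.584 to 0.712). The order of the 2 unigenes was thus turned between the stages in both cultivars. The move with stage was 29.6-fold in Zhongwan 6 (26.7 to 32.8) and 25.6-fold in Zhewan 1 (22.2 to 29.5).

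The MYB and GRAS unigenes kept their order in all 4 libraries, the MYB unigene being the higher per length. The ratio of MYB to GRAS was 1.36 at 25 DAP (1.25 to 1.49) and 1.25 at 10 DAP (1.20 to 1.31) in Zhongwan 6. In Zhewan 1 it was 2.64 at 25 DAP (2.33 to 2.996) and 2.29 at 10 DAP (2.14 to 2.45). With stage it moved 1.09-fold in Zhongwan 6 (0.986 to 1.20) and 1.15-fold in Zhewan 1 (1.00 to 1.33), where the lower bound lies at about no change. Between the cultivars it was lower in Zhongwan 6 at both stages, 0.515 times that of Zhewan 1 at 25 DAP (0.443 to 0.598) and 0.547 times at 10 DAP (0.505 to 0.592). The value at 25 DAP was 0.940 times that at 10 DAP (0.793 to 1.11), so a change of this cultivar difference with stage was not detectable at this depth.

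**Figure D4:**
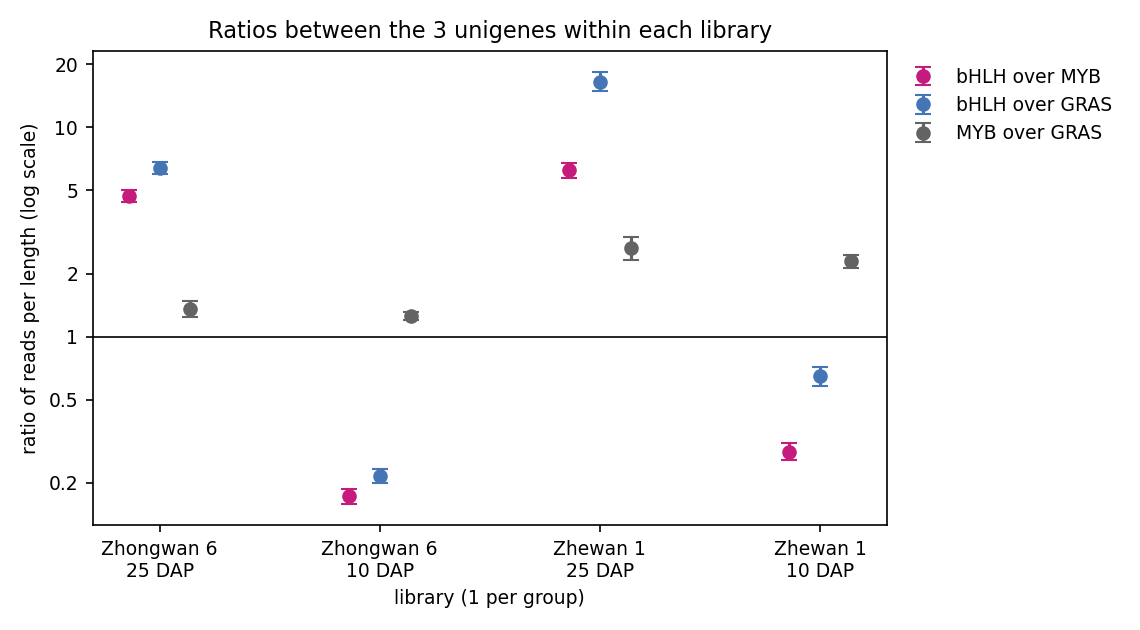
Ratio of reads per length (log axis) between pairs of the 3 unigenes in each library, with exact 95% intervals for counting error; the line marks equal levels. The ratios of bHLH to MYB and to GRAS lie above 1 in both libraries of 25 DAP and below 1 in both of 10 DAP, and the ratio of MYB to GRAS is above 1 throughout, at 1.25 to 1.36 in Zhongwan 6 and 2.29 to 2.64 in Zhewan 1.

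Other unigenes of the 3 families were taken from the readable part of the study's annotation by similarity to Medicago proteins, which covers 1121 unigenes of the table and not the 3 described here. It holds 7 MYB unigenes, of which 5, in 3 components, reached an RPKM of 1 in a library. The 2 others, annotated as MYB55 and MYB30, had 2 to 9 reads in each library and were not called. A unigene that passes this minimum through its highest library alone is also one that can differ, so the counts are read beside those of all unigenes that pass it. Of these, 15.5% were called higher and 25.6% lower at 25 DAP in Zhongwan 6, and 35.4% higher and 16.4% lower in Zhewan 1.

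At 25 DAP all 5 MYB unigenes fell in Zhongwan 6, and 4 fell and 1 rose in Zhewan 1. Nothing is read from these counts: the 4 that fell in both cultivars, which make up 2 components, pass the minimum through libraries of 10 DAP alone, so their fall is favoured by it. The 3 sequences of comp13165, annotated as MYB3R-5, of a three-repeat class that controls cell cycle genes in Arabidopsis, share a component and hence reads. Their RPKM at 25 DAP was 0.481 to 0.652 in Zhongwan 6, against 1.96 to 2.31 at 10 DAP, and in Zhewan 1 0.155 to 0.212, against 2.51 to 3.30. The sequence with the most reads, comp13165_c0_seq2, fell 3.61-fold in Zhongwan 6 and 15.6-fold in Zhewan 1.

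The unigene comp13240_c0_seq1, annotated as MYB48, drew 7 reads at 25 DAP and 224 at 10 DAP from Zhongwan 6, and 8 and 39 from Zhewan 1. It fell in both cultivars. At 10 DAP it was 4.73-fold higher in Zhongwan 6 than in Zhewan 1 (3.35 to 6.82). It passes the minimum through Zhongwan 6 at 10 DAP alone, which favours this difference too, so nothing is read from it. The unigene comp12477_c0_seq1, annotated as MYB61, known in Arabidopsis for roles in stomata and in seed coat mucilage, stood at an RPKM of 1.03 at 25 DAP against 4.12 at 10 DAP in Zhongwan 6, a fall of 4.02-fold. Zhewan 1 had 6.58 at 25 DAP and 3.26 at 10 DAP, a ratio of 2.02 (1.74 to 2.35) that no longer passed 2-fold with median-ratio scaling.

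The annotated GRAS unigenes did not follow comp21944_c0_seq2. Both are sequences of comp12766, annotated as the scarecrow-like factor SCL11, and neither was called between the stages. Their RPKM in Zhongwan 6 was 5.23 and 5.99 at 25 DAP, against 7.58 and 8.71 at 10 DAP, and in Zhewan 1 it was 10.1 and 12.4 at 25 DAP, against 5.53 and 6.36 at 10 DAP. At 25 DAP comp12766_c0_seq2 was 0.484 times as high in Zhongwan 6 as in Zhewan 1 (0.425 to 0.551), a call that was lost with median-ratio scaling.

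Of 5 annotated bHLH unigenes, 2 reached an RPKM of 1, and the 3 others had at most 15 reads in a library and were not called between the stages. The unigene comp11239_c0_seq1 rose in Zhewan 1, with 40 reads at 25 DAP and 4 at 10 DAP, and had 10 and 8 reads at these stages in Zhongwan 6. It passes the minimum through Zhewan 1 at 25 DAP alone, which favours this rise. The unigene comp12270_c0_seq1 had 0 reads in Zhewan 1 at 25 DAP, against 106 at 10 DAP, which is at least 39.4-fold lower when 3 reads are taken as the limit. Zhongwan 6 had 137 reads of it at 25 DAP and 64 at 10 DAP, a ratio of 1.84 (1.36 to 2.51) that passed 2-fold with median-ratio scaling alone. In each cultivar comp12270_c0_seq1 passes the minimum through its higher library alone, which favours these changes as well. Neither of these bHLH unigenes had the steep rise in both cultivars that comp30742_c0_seq1 had.

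**Figure D5:**
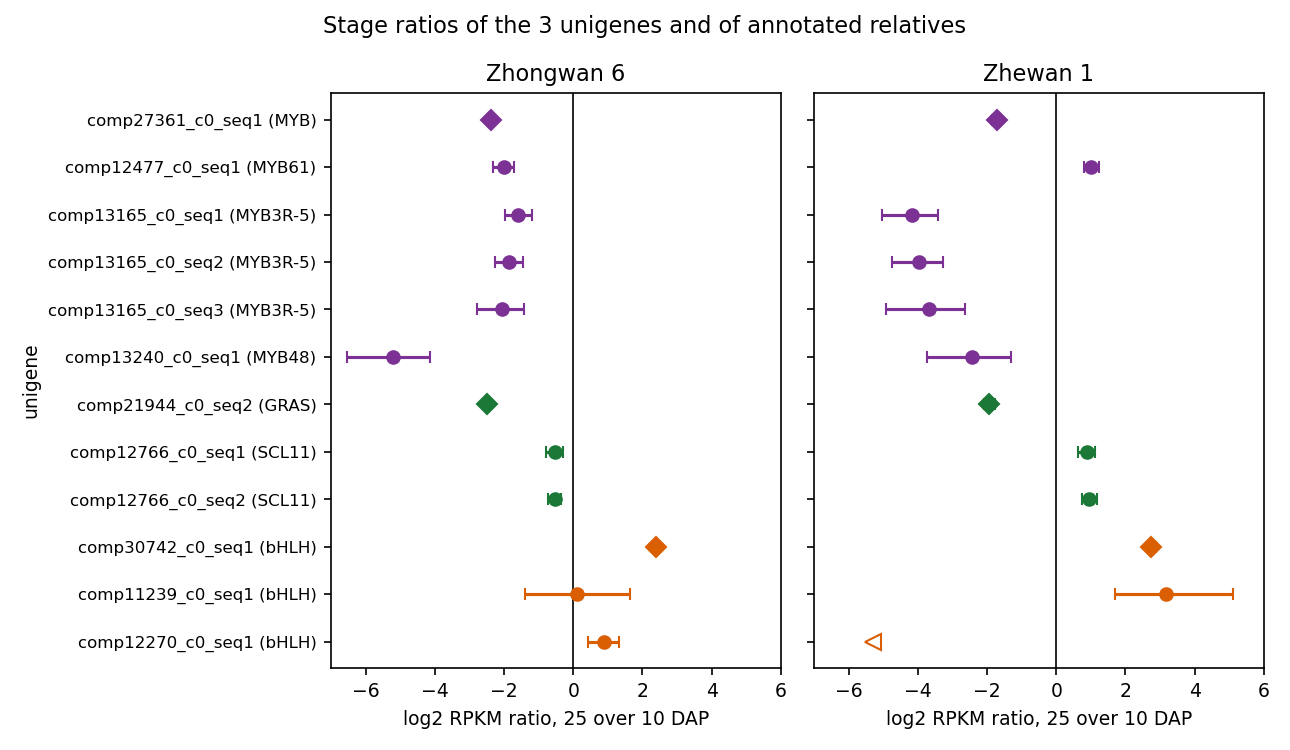
Log2 RPKM ratio of 25 over 10 DAP in Zhongwan 6 (left) and Zhewan 1 (right) for the 3 unigenes (diamonds) and the annotated unigenes of the same families with an RPKM of at least 1 in a library (circles), with 95% counting intervals; the open triangle is a bound for a unigene with 0 reads at 25 DAP. The MYB unigenes lie left of 0 except comp12477_c0_seq1 in Zhewan 1, and the SCL11 sequences lie left of 0 in Zhongwan 6 and right of it in Zhewan 1, within 2-fold in both.

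The unigenes with the most similar course over the 4 libraries were found by the root mean square difference of log2 RPKM after each unigene's own mean was taken off, among 32661 unigenes of other components with at least 10 reads in every library. By this measure the MYB and GRAS unigenes were 0.465 apart, while the bHLH unigene was 2.33 from MYB and 2.50 from GRAS. Within a distance of 0.25 there were 204 unigenes for MYB, 37 for GRAS and 185 for bHLH. Of the 32661 unigenes, 453 had an annotation in the readable part, so many without one can lie nearer than the annotated ones named below. Ranks given below are by distance among all unigenes compared. With 4 libraries, a near course is a description of these values.

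The nearest to the MYB unigene was comp40600_c0_seq4, with no annotation in the readable part and an RPKM of 0.988 and 5.03 at 25 and 10 DAP in Zhongwan 6 and of 0.837 and 2.89 in Zhewan 1 (distance 0.0398). The nearest annotated ones were comp11544_c0_seq1, a GDSL-like lipase (0.160, rank 51), and comp12348_c0_seq1, a protein of unknown function (0.177, rank 68). The nearest to the GRAS unigene was comp13387_c0_seq1, a calmodulin-binding protein (0.0781), with an RPKM of 0.774 and 4.81 at 25 and 10 DAP in Zhongwan 6 and of 0.347 and 1.39 in Zhewan 1. Its higher level in Zhongwan 6 at both stages follows from this choice by course and is no further result. The next annotated one was comp12496_c0_seq2, the transcription factor WRKY70, which takes part in defence signalling in Arabidopsis (0.240, rank 31).

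The nearest to the bHLH unigene was comp37476_c0_seq5, also without annotation, with an RPKM of 4.51 and 0.851 at 25 and 10 DAP in Zhongwan 6 and of 5.74 and 0.785 in Zhewan 1 (distance 0.0444). The nearest annotated ones were comp12157_c0_seq1, a Sec14p-like phosphatidylinositol transfer protein (0.112, rank 12), and comp10409_c0_seq1, the small GTPase ADP-ribosylation factor A1F (0.119, rank 17), which acts in vesicle budding. The last had an RPKM of 22.3 and 4.89 at 25 and 10 DAP in Zhongwan 6 and of 30.5 and 5.08 in Zhewan 1, levels of the same order as those of the bHLH unigene.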

How the data were processed

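RNA-Seq reads of 4 libraries, 1 per group, were assembled by the authors with Trinity and mapped to the unigenes with Bowtie 0.12.8 (as the submitters' processing notes also name it). The deposited counts are reads per unigene, and the deposited RPKM values are these counts relative to unigene length and to the sum of counts in the library. RPKM recomputed from the counts matched within 0.1% in all entries except 2. The 3 unigenes and the lists were chosen with earlier results of these data known. Calls used a two-sided Fisher's exact test per unigene over the whole table with Benjamini-Hochberg adjustment, FDR 0.001 and 2-fold, with no pseudocount or filter. Ratio intervals are exact Clopper-Pearson, levels Poisson, both at 95%. The stage model used edgeR 4.0.16 (TMM, filterByExpr) in R 4.3.3, with limma 3.58.1 as an alternative. Further settings tried were other library scalings, component sums, a chi-square test, a 4-fold threshold, a pseudocount of 1, an RPKM minimum of 1 and edgeR's likelihood ratio test under a coefficient of variation set by assumption. Scripts ran in Python 3.11.15 with SciPy 1.17.1, NumPy 2.4.6 and pandas 2.3.3 and were tested on simulated data.

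Named besides the 3 unigenes are the MYB, GRAS and bHLH unigenes of the annotation sheet with an RPKM of at least 1 in a library and, for each of the 3, the nearest unigene in course and the nearest 2 with an annotation. The sheet was read in part, so no enrichment was tested on it. The qRT-PCR values were not analysed here.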

Additional observations from a re-analysis of the deposited data

Results flagged for a closer look

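The change between 25 and 10 DAP differed between the cultivars for all 3 unigenes beyond counting error, as the values were deposited. Such a difference is not particular to them, because the libraries as a whole are shifted in the same direction. Over the 22135 unigenes with RPKM of 1 or more throughout, the median log2 ratio was -0.14 in Zhongwan 6 and 0.56 in Zhewan 1. The log2 ratio of 25 to 10 DAP in Zhongwan 6 minus that in Zhewan 1 was -0.64 for comp27361_c0_seq1 (MYB), -0.55 for comp21944_c0_seq2 (GRAS) and -0.35 for comp30742_c0_seq1 (bHLH). The intervals cover reads alone, with 1 library behind each value, and no test over replicates exists. With median-ratio scaling the signs turned, to 0.15, 0.23 and 0.44. The same difference taken between 2 unigenes, which no scaling touches, was 1.23-fold for bHLH relative to MYB (1.04 to 1.45), 1.16-fold for bHLH relative to GRAS (0.971 to 1.38) and 0.940-fold for MYB relative to GRAS (0.793 to 1.11). The last 2 lie within counting error. The interval of the first comes close to no change, and it can be too narrow where counted reads are not independent.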

How the results depend on the processing

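All 6 stage calls kept their direction and passed under median-ratio scaling, equal sums of RPKM and a pseudocount of 1, the settings that can move a ratio. Component sums cannot, since each unigene is the only row of its component. An assumed coefficient of variation of 0.4 left 0 of the 3 unigenes called in all 4 comparisons, where 0.310% to 5.93% of all unigenes were called. One of 0.2 left 0 of the 3 called between the cultivars. Of all unigenes, 7.62% were then called at 25 DAP and 4.21% at 10 DAP. A 4-fold threshold on the deposited scaling left all 3 stage calls in Zhongwan 6, 1 in Zhewan 1 (bHLH) and 0 calls between the cultivars. With median-ratio scaling the Zhewan 1 log2 ratios of -2.28 for MYB and -2.49 for GRAS lie beyond 4-fold. A pseudocount of 1 left 0 of the 3 unigenes called between the cultivars at 25 DAP. Shares of all unigenes called at 4-fold or with the pseudocount are not given, so nothing is read from these counts. The stage model had 3 of the 3 unigenes under an adjusted p of 0.05 with limma and 3 with edgeR without a filter, against 0 as reported. Median-ratio scaling turned the cultivar log2 ratio of bHLH to 0.11 at 25 DAP and -0.33 at 10 DAP, and the difference between the cultivars in the stage ratio to 0.15 for MYB, 0.23 for GRAS and 0.44 for bHLH. With 1 library per group no library could be left out, and no variation between libraries of a group could be estimated. No paired analysis was possible because each group has a single library and no replicate number to match, beyond the stage model, which compares the stages within cultivar.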

Other observations

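Among the other transcription factor families of the readable annotation, 16 of 37 unigenes reached an RPKM of 1 in a library. In Zhongwan 6, 3 of them rose and 10 fell at 25 DAP, where 15.5% of all unigenes passing the same minimum were called higher and 25.6% lower. In Zhewan 1, 4 rose and 5 fell, where 35.4% of all were called higher and 16.4% lower. Some pass the minimum through the libraries of a single stage, which favours a call, so nothing is read from these counts. The following were chosen after their values were seen. The unigene comp12701_c0_seq1, annotated as an Integrase-type DNA-binding protein, a name used for AP2/ERF factors, drew 79 reads at 25 DAP and 2303 at 10 DAP from Zhongwan 6, against 107 and 109 from Zhewan 1, so that a single library stands apart. The unigene comp10982_c0_seq1, annotated as WRKY24, had 0 reads at 25 DAP in both cultivars, against 391 at 10 DAP in Zhongwan 6 and 390 in Zhewan 1. The bZIP unigene comp13209_c0_seq2 went the other way, with 202 reads at 25 DAP and 3 at 10 DAP in Zhongwan 6, and 114 and 10 in Zhewan 1.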
